A study of Mus musculus with 21 samples.

Results

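The genes described are 35 mouse genes of the ATF4 pathway, taken by symbol from a table of 23337 genes measured in 21 libraries of B cells. They comprise 10 regulators and feedback genes (Atf4, Atf5, Ddit3, Cebpb, Cebpg, Nupr1, Trib3, Ddit4, Sesn2 and Chac1), 8 enzymes of serine, glycine and one-carbon metabolism (Phgdh, Psat1, Psph, Shmt1, Shmt2, Mthfd1, Mthfd1l and Mthfd2), 7 other amino acid enzymes (Asns, Aldh18a1, Pycr1, Got1, Gpt2, Cth and Cbs) and 10 amino acid carriers (Slc7a1, Slc7a3, Slc7a5, Slc7a6, Slc7a11, Slc3a2, Slc1a4, Slc1a5, Slc38a1 and Slc38a2). All 35 symbols were found in the table. The rule that selects them uses gene names and no measured value, and the list was drawn up with earlier results of these data known.

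The study concerned self-reactive B cells of the gut. Cells came from C57BL/6 mice of 8 to 12 weeks and were taken from Peyer's patches (PP, the lymphoid follicles of the small intestine), mesenteric lymph nodes (mLN, which drain the gut) and spleen. In each of these 3 tissues there were 3 libraries of cells labelled BCL2 HEL pos (numbered 922, 926 and 950), 3 of cells labelled HEL pos (one pool, 392 and 399) and 1 pool of cells labelled HEL neg. The labels do not spell out HEL or BCL2, do not give the promoter or allele behind the BCL2 label, and do not say how many mice a pool held or whether a number stands for 1 mouse. Mice of a group shared a cage, per the labels, so p-values measure the spread between these libraries only.

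ATF4 is a transcription factor made when kinases that sense amino acid shortage, unfolded protein, haem lack or viral RNA phosphorylate eIF2, which slows general protein synthesis while allowing translation of the ATF4 message. It binds C/EBP-ATF response elements together with C/EBP family partners and raises genes for amino acid synthesis, amino acid import and tRNA charging, as well as genes that feed back on the response. The serine and one-carbon enzymes make serine from a glycolytic intermediate, split it into glycine and a one-carbon unit, and pass that unit through folate towards purines and thymidylate. In lymphocytes these enzymes and several of the carriers are known to rise on activation and growth.

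Library totals ran from 5475131 to 11340876 counts, so that 3 counts correspond to 0.265 to 0.548 CPM (counts per 1000000 counts of the library). Single-gene levels below are CPM on totals scaled by the trimmed mean of M values (TMM). Several libraries stood apart. In Peyer's patches, 12 gut epithelium markers summed to 41.1 to 189 CPM of the plain total in BCL2 HEL pos libraries, 253 to 1110 in HEL pos libraries and 1285 in the HEL neg pool, against 15.0 to 74.2 in all mLN and spleen libraries. Among the PP HEL pos libraries the pool and 399 also held 943.5 and 718.7 CPM of olfactory and vomeronasal receptor transcripts, against 86.2 in 392. Counts of 4 Y-linked genes, looked at after the values were seen, summed to 92.3 to 161 CPM in BCL2 HEL pos libraries, 140 to 168 in HEL pos pools, 0 to 0.869 in the 6 HEL pos libraries 392 and 399, and 115 to 156 in HEL neg pools. Summed cycling markers were 14.6 to 32.4 CPM in BCL2 HEL pos, 32.2 to 77.9 in HEL pos and 190.6 to 254 in HEL neg libraries. The B cell markers Ms4a1, Cd79a, Cd79b, Pax5 and Cd22 summed to at least 8008 CPM in every library.

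The promoters of these genes differ in whether they hold the core of a C/EBP-ATF response element, here the letters TGATGNAA or their reverse complement. In RefSeq windows on GRCm38.p6 (250 bases before to 50 after each gene's start), 8 of the 30 members with a window held it (26.7%), against 1219 of 27025 genes (4.51%). The 8 were Asns, Pycr1, Got1, Slc1a4, Slc7a11, Chac1, Nupr1 and Trib3. Below are stretches of 60 bases on the minus strand for 4 of the members with a match, followed by Shmt1 and Shmt2, which were called in 8 and 7 of the 11 pairwise comparisons below and whose windows hold no match. They are shown so that promoters with and without the letters can be set side by side among members called higher in mLN than in spleen. Capitals mark the match. Its first base lies at -23 from the RefSeq start in Asns, -103 in Pycr1, -102 in Got1 and -4 in Slc1a4. The Shmt1 and Shmt2 stretches are the last 60 bases before the RefSeq start. For Asns and Shmt1 that start lies inside the GENCODE gene span given below. The Asns match and the Shmt1 stretch therefore fall within those spans. A match is a description of letters and says nothing of binding.
Asns, chr6:7693199-7693258: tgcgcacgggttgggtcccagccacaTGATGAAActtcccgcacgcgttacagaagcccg
Pycr1, chr11:120643818-120643877: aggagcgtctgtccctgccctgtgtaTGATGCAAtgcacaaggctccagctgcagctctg
Got1, chr19:43524674-43524733: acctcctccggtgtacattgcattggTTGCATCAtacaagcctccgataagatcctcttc
Slc1a4, chr11:20332684-20332743: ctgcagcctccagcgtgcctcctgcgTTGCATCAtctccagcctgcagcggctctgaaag
Shmt1, chr11:60811266-60811325: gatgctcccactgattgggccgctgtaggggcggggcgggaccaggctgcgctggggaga
Shmt2, chr10:127522445-127522504: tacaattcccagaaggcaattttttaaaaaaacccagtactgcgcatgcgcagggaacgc

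Per kilobase of exon, and averaged over the 21 libraries, Atf4 had the highest level of the 35 genes (93.7 CPM per kb), followed by Phgdh (76.5), Slc1a5 (71.1), Slc3a2 (49.5) and Shmt2 (48.0). Asns stood at 1.89 CPM per kb, and Slc7a11, Nupr1 and Cbs at 0.0411, 0.0278 and 0.0210 CPM per kb. Of the 35, 31 passed the low-count filter in the fit of the 18 BCL2 HEL pos and HEL pos libraries. The 4 that did not were Cth (0 to 4.76 CPM over the 21 libraries), Slc7a3 (0 to 1.70), Cbs (0 to 0.849) and Nupr1 (0 to 0.893). Among the members that passed, Cebpb, Chac1 and Slc7a11 were at 0 in at least 1 library and stayed at or under 5.07 CPM in all.

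The first question was whether self-reactive B cells of gut tissues differ in these genes from those of the spleen. They did: every member called at an adjusted p under 0.05 in either tissue, in either kind of cell, was higher in the gut-associated tissue than in spleen. Under 4 alternatives Cebpb was also called lower in mLN than in spleen of HEL pos cells (-2.24 ± 0.83, adjusted p = 0.0528 as reported), and under 2 of these Cebpg was as well (-0.62 ± 0.28, adjusted p = 0.114). Of the 8 serine, glycine and one-carbon enzymes, 4 were higher in PP and 6 in mLN than in spleen of BCL2 HEL pos cells, and 5 and 6 in HEL pos cells, with Shmt1 and Shmt2, the cytosolic and mitochondrial serine hydroxymethyltransferases, called each time. The longest list was that of mLN against spleen in HEL pos cells, with 18 members, Asns, Gpt2 and Pycr1 among them. Atf4 mRNA itself was called in none of these comparisons. In sorted bulk cells, fewer cells of a type and less RNA per cell cannot be told apart.

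In BCL2 HEL pos cells, 9 of the 31 members tested were called higher and 0 lower in PP than in spleen (edgeR quasi-likelihood test, Benjamini-Hochberg adjustment over all genes), where 7.34% of all 11419 genes were called in either direction. For mLN against spleen the counts in these cells were 12 higher and 0 lower, with 10.0% of all genes called. Among HEL pos libraries, 9 members were higher and 0 lower in PP than in spleen, with 15.4% of all genes called, and 18 were higher and 0 lower in mLN than in spleen, with 24.5% called. The median log2 difference over the 31 members was 0.38 for PP and 0.45 for mLN in BCL2 HEL pos cells, and 0.46 for PP and 0.83 for mLN in HEL pos cells. Over all genes tested it was 0.02 for PP and -0.01 for mLN in HEL pos cells. All 12 members called for mLN in BCL2 HEL pos cells were among the 18 called in HEL pos cells (100% and 66.7% of the lists), which share no library with them. For PP, 6 members were called in both kinds of cells, 66.7% of each list of 9. PP and mLN were set against the same spleen libraries, so their counts are not independent of each other. The 12 calls for mLN in BCL2 HEL pos cells became 6 when mLN 926 was left out, and 7 without spleen 922 or spleen 926.

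**Figure D1:**
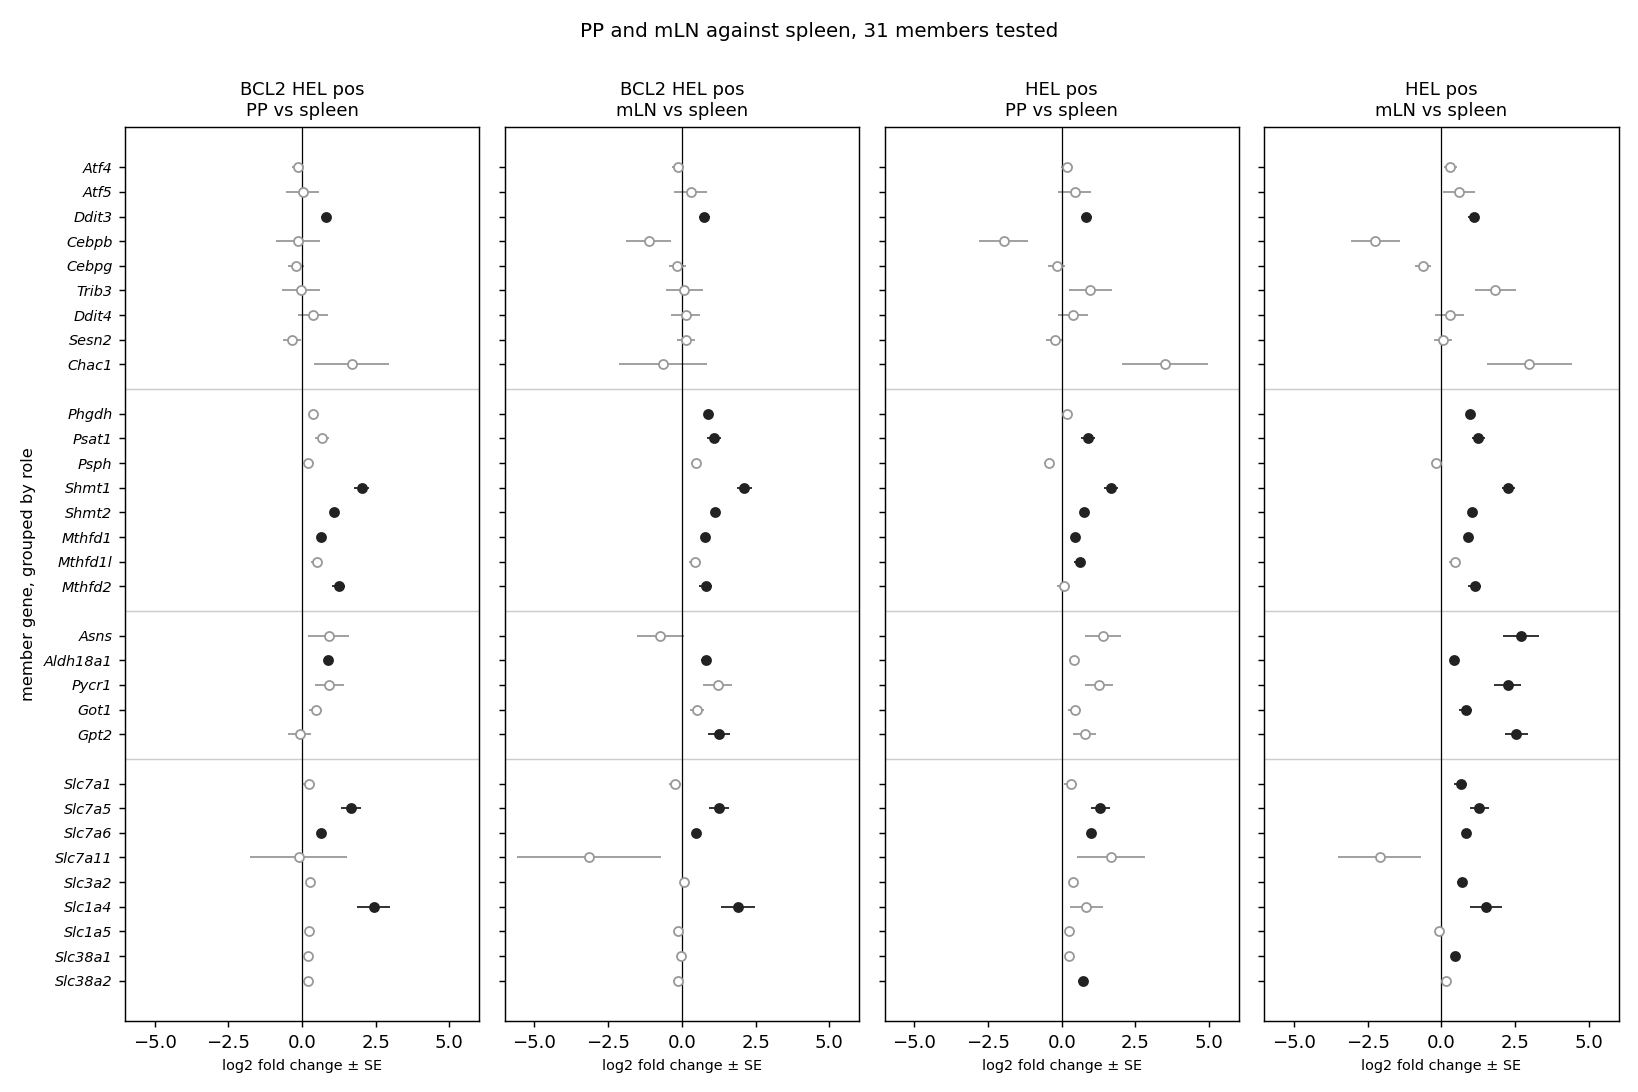
Log2 differences of the 31 members tested between gut-associated tissue and spleen, in 4 panels: BCL2 HEL pos cells from PP and from mLN, then HEL pos cells from PP and from mLN, each against spleen. Bars are SE, and filled points were called at an adjusted p under 0.05; all filled points lie right of 0, with 9, 12, 9 and 18 of them from left to right.

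Shmt1 (chr11:60788104-60811718, minus strand) makes glycine and a one-carbon unit from serine in the cytosol. It had 22.5, 35.2 and 34.0 CPM in PP and 31.7, 36.4 and 29.7 in mLN, against 6.47, 7.04 and 8.76 in spleen, in BCL2 HEL pos libraries 922, 926 and 950. In HEL pos libraries (pool, 392 and 399) it had 65.9, 54.9 and 70.5 CPM in PP and 78.8, 112 and 93.0 in mLN, against 17.7, 28.9 and 13.2 in spleen. Groups of one kind of cell did not overlap between spleen and either other tissue. The log2 differences from spleen were 2.02 ± 0.25 (SE, adjusted p = 2.92e-05) for PP and 2.12 ± 0.25 (adjusted p = 1.26e-05) for mLN in BCL2 HEL pos cells, and 1.68 ± 0.23 (adjusted p = 5.71e-05) and 2.27 ± 0.23 (adjusted p = 5.15e-07) in HEL pos cells. Its mitochondrial counterpart Shmt2 (chr10:127517123-127522444, minus strand) had 138, 134 and 137 CPM in PP and 148, 133 and 143 in mLN, against 68.0, 53.9 and 69.9 in spleen, in BCL2 HEL pos cells. Shmt2 in HEL pos cells had 202, 192 and 228 CPM in PP and 220, 264 and 249 in mLN, against 108, 118 and 137 in spleen. Every PP and mLN library again lay above every spleen library of the same cells, with log2 differences of 1.07 ± 0.13 and 1.13 ± 0.13 in BCL2 HEL pos cells and 0.77 ± 0.13 and 1.03 ± 0.13 in HEL pos cells (adjusted p at most 0.000286).

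The enzymes that make serine behaved differently from each other. Phgdh, which takes the first step from the glycolytic intermediate (chr3:98313170-98339990, minus strand), had 171, 155 and 195 CPM in PP and 232, 264 and 249 in mLN, against 125, 117 and 153 in spleen, in BCL2 HEL pos libraries. Among HEL pos libraries it had 173, 151 and 184 CPM in PP and 303, 267 and 290 in mLN, against 148, 144 and 154 in spleen. The mLN libraries were the highest in both kinds of cells and overlapped with neither other tissue. Phgdh was called for mLN against spleen in BCL2 HEL pos (0.90 ± 0.12, adjusted p = 7.57e-05) and HEL pos cells (0.96 ± 0.12, adjusted p = 7.07e-06). It was not called for PP against spleen, where HEL pos cells gave 0.18 ± 0.12. In BCL2 HEL pos cells every PP library still lay above every spleen library, with means of 174 and 132 CPM. Phgdh was also lower in PP than in mLN in both kinds of cells, by -0.53 ± 0.12 (adjusted p = 0.0382) and -0.78 ± 0.12 (adjusted p = 0.000727). Psat1, the transaminase of the second step, had 41.9, 35.4 and 28.5 CPM in PP and 48.1, 54.1 and 35.5 in mLN, against 25.9, 14.1 and 24.6 in spleen, in BCL2 HEL pos libraries. HEL pos libraries held 47.7, 72.8 and 80.6 CPM of it in PP and 67.5, 92.4 and 95.0 in mLN, against 35.6, 42.2 and 30.7 in spleen. It was called in HEL pos cells for PP (0.89 ± 0.24, adjusted p = 0.0131) and mLN (1.25 ± 0.23, adjusted p = 0.000414) and in BCL2 HEL pos cells for mLN (1.09 ± 0.24, adjusted p = 0.00547). Psph, the phosphatase of the last step, was called in no comparison of tissues and ranged from 18.3 to 37.3 CPM over the 21 libraries.

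The folate enzymes carry the one-carbon unit onward. Mthfd1, the cytosolic enzyme with 3 activities, had 62.4, 83.9 and 78.2 CPM in PP and 74.9, 85.3 and 87.6 in mLN, against 47.3, 45.1 and 49.8 in spleen, in BCL2 HEL pos cells. HEL pos libraries had 84.1, 88.9 and 101 CPM in PP and 106, 136 and 120 in mLN, against 66.1, 65.4 and 67.4 in spleen. Mthfd1 was called in all 4 of these comparisons, with log2 differences of 0.64 ± 0.14 and 0.79 ± 0.14 in BCL2 HEL pos and 0.46 ± 0.13 and 0.89 ± 0.13 in HEL pos cells, and no group overlapped with its spleen group. Its PP call in HEL pos cells was kept in 6 of 13 alternatives. That call was lost when PP 399 or any spleen library was left out, and with only the compared libraries. The mitochondrial dehydrogenase and cyclohydrolase Mthfd2 had 28.6, 46.3 and 44.1 CPM in PP and 22.5, 40.0 and 25.6 in mLN, against 16.5, 14.6 and 18.6 in spleen, in BCL2 HEL pos libraries. In HEL pos libraries it stood at 29.0, 32.6 and 25.9 CPM in PP and 52.6, 64.0 and 61.9 in mLN, against 25.2, 25.5 and 32.7 in spleen. The HEL neg pools held 41.6 CPM of it in PP and 33.8 in mLN, against 21.8 in spleen. Mthfd2 was thus higher than spleen in PP and mLN of BCL2 HEL pos cells (1.24 ± 0.22, adjusted p = 0.00114, and 0.81 ± 0.22, adjusted p = 0.0209), and in mLN of HEL pos cells (1.12 ± 0.21, adjusted p = 0.000503). The PP HEL pos libraries overlapped with spleen (0.07 ± 0.22). Mthfd1l, which makes formate in mitochondria, ranged from 27.5 to 66.3 CPM over all libraries and was called for PP against spleen in HEL pos cells (0.61 ± 0.19, adjusted p = 0.0340).

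Summed over the 8 enzymes, PP libraries held 539.9 to 592 CPM and mLN libraries 631.5 to 695.7, against 302.7 to 389.4 in spleen, in BCL2 HEL pos cells. The sums were 668.7 to 783.9 CPM in PP and 900.5 to 1019 in mLN, against 473.5 to 502.3 in spleen, in HEL pos cells. The HEL neg pools held 567.5 in PP and 555 in mLN, against 542.8 in spleen.

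**Figure D2:**
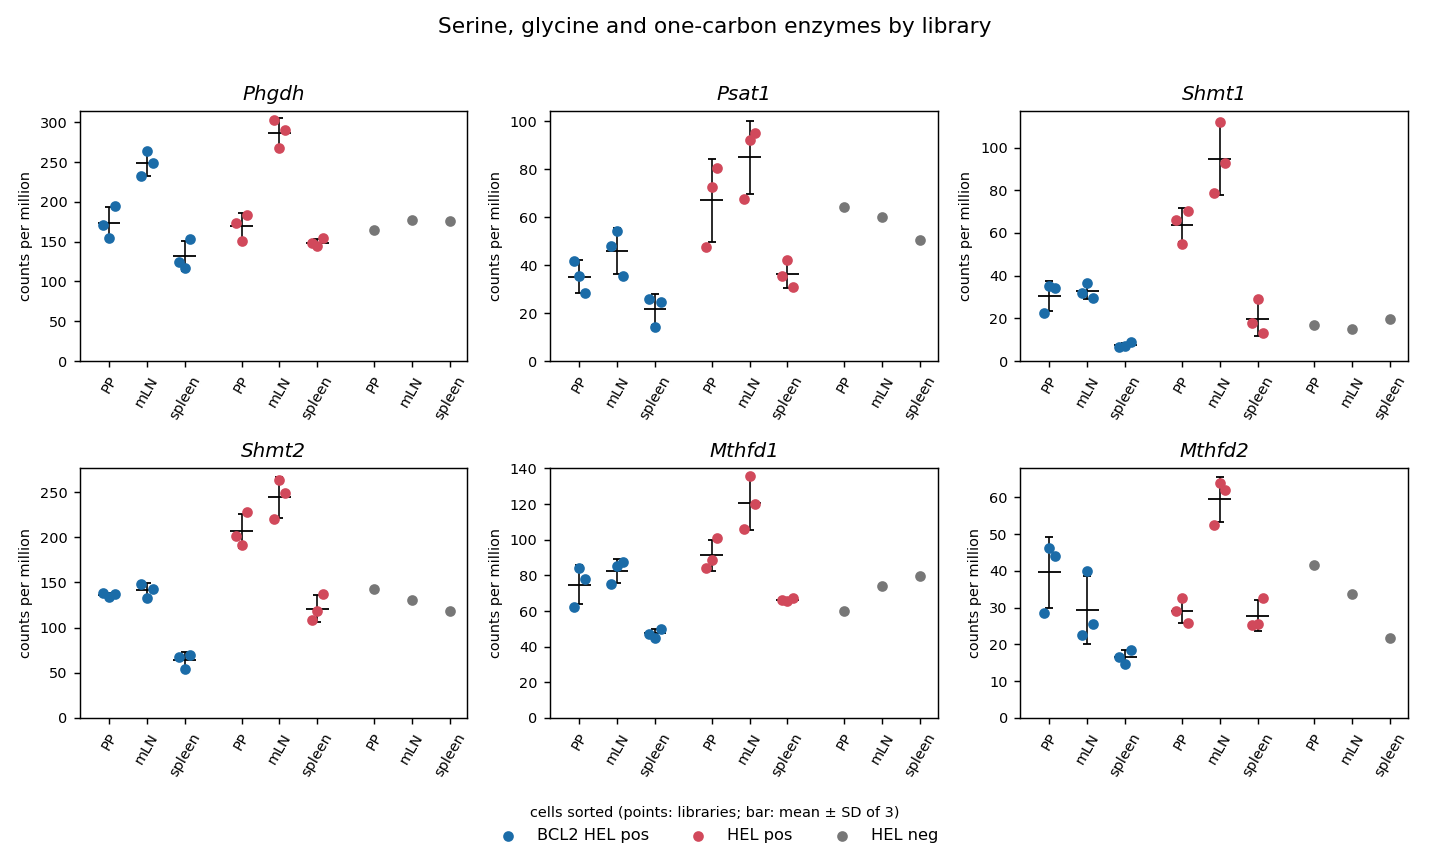
Levels of serine, glycine and one-carbon enzymes in every library (CPM on TMM-scaled totals), 1 point per library with mean and SD bars for groups of 3, and with groups from left to right BCL2 HEL pos, HEL pos and HEL neg, each as PP, mLN and spleen. Spleen libraries lie lowest for Shmt1 and Shmt2 within both BCL2 HEL pos and HEL pos cells, while the HEL neg pools of Shmt1 lie between 15.0 and 19.5 CPM in all tissues.

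Of the other amino acid enzymes, all 5 that passed the filter were called for mLN in HEL pos cells, against 0 of 5 for PP. Of all genes, 24.5% were called for mLN and 15.4% for PP in these cells. In BCL2 HEL pos cells 2 of 5 were called for mLN (Gpt2 and Aldh18a1) and 1 of 5 for PP (Aldh18a1). The shares of all genes were 10.0% and 7.34% there. In PP against mLN, Gpt2 alone of the 5 was called in HEL pos cells and 0 of 5 in BCL2 HEL pos cells. Gpt2, the mitochondrial alanine transaminase, had 1.66, 4.21 and 5.06 CPM in PP and 10.9, 10.4 and 6.72 in mLN, against 3.02, 3.35 and 5.18 in spleen, in BCL2 HEL pos libraries. In HEL pos libraries the values were 9.71, 7.55 and 5.42 CPM in PP and 25.4, 23.4 and 27.4 in mLN, against 5.93, 4.77 and 2.38 in spleen. The mLN libraries of each kind lay above all others of that kind, with log2 differences from spleen of 1.26 ± 0.38 (adjusted p = 0.0397) and 2.54 ± 0.38 (adjusted p = 4.23e-05). PP was also below mLN in HEL pos cells (-1.76 ± 0.37, adjusted p = 0.00531).

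Asns, asparagine synthetase and a widely used readout of ATF4 activity (chr6:7675169-7693254, minus strand), had 1.28, 2.44 and 0.960 CPM in PP and 0.419, 0.728 and 0.280 in mLN, against 1.58, 0.231 and 0.664 in spleen, in BCL2 HEL pos libraries. HEL pos libraries held 6.32, 2.42 and 7.52 CPM in PP and 7.13, 14.4 and 17.6 in mLN, against 2.80, 0.615 and 2.53 in spleen. The HEL neg pools held 23.1 CPM in PP and 8.44 in mLN, against 6.95 in spleen. The 3 mLN libraries of BCL2 HEL pos cells together had 11 counts of Asns, so their levels are near the limit of these libraries. It was called for mLN against spleen in HEL pos cells (2.70 ± 0.61, adjusted p = 0.00228) and missed the threshold for PP (1.41 ± 0.61, adjusted p = 0.127). Aldh18a1, which starts proline synthesis from glutamate, had 49.3, 64.5 and 46.8 CPM in PP and 53.2, 46.6 and 51.8 in mLN, against 28.9, 31.3 and 25.0 in spleen, in BCL2 HEL pos cells. The HEL pos values were 56.3, 55.9 and 69.4 CPM in PP and 61.5, 65.4 and 54.0 in mLN, against 39.2, 45.8 and 50.3 in spleen. Its log2 differences were 0.89 ± 0.16 (adjusted p = 0.00121) and 0.81 ± 0.16 (adjusted p = 0.00208) in BCL2 HEL pos cells, and 0.44 ± 0.16 (adjusted p = 0.0438) for mLN in HEL pos cells. That last call was kept in 3 of 12 alternatives, with adjusted p up to 0.242. The HEL pos means of Aldh18a1 were 60.5 CPM in PP and 60.3 in mLN. The HEL neg pools held 65.4 CPM of it in PP and 44.3 in mLN, against 46.5 in spleen. Pycr1, which completes proline, ran from 6.38 to 13.2 CPM in mLN against 1.23 to 3.23 in spleen of HEL pos cells (2.24 ± 0.47, adjusted p = 0.00129). The cytosolic aspartate transaminase Got1 ran from 70.0 to 84.7 CPM in mLN against 40.1 to 45.7 in spleen (0.83 ± 0.22, adjusted p = 0.00893).

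**Figure D3:**
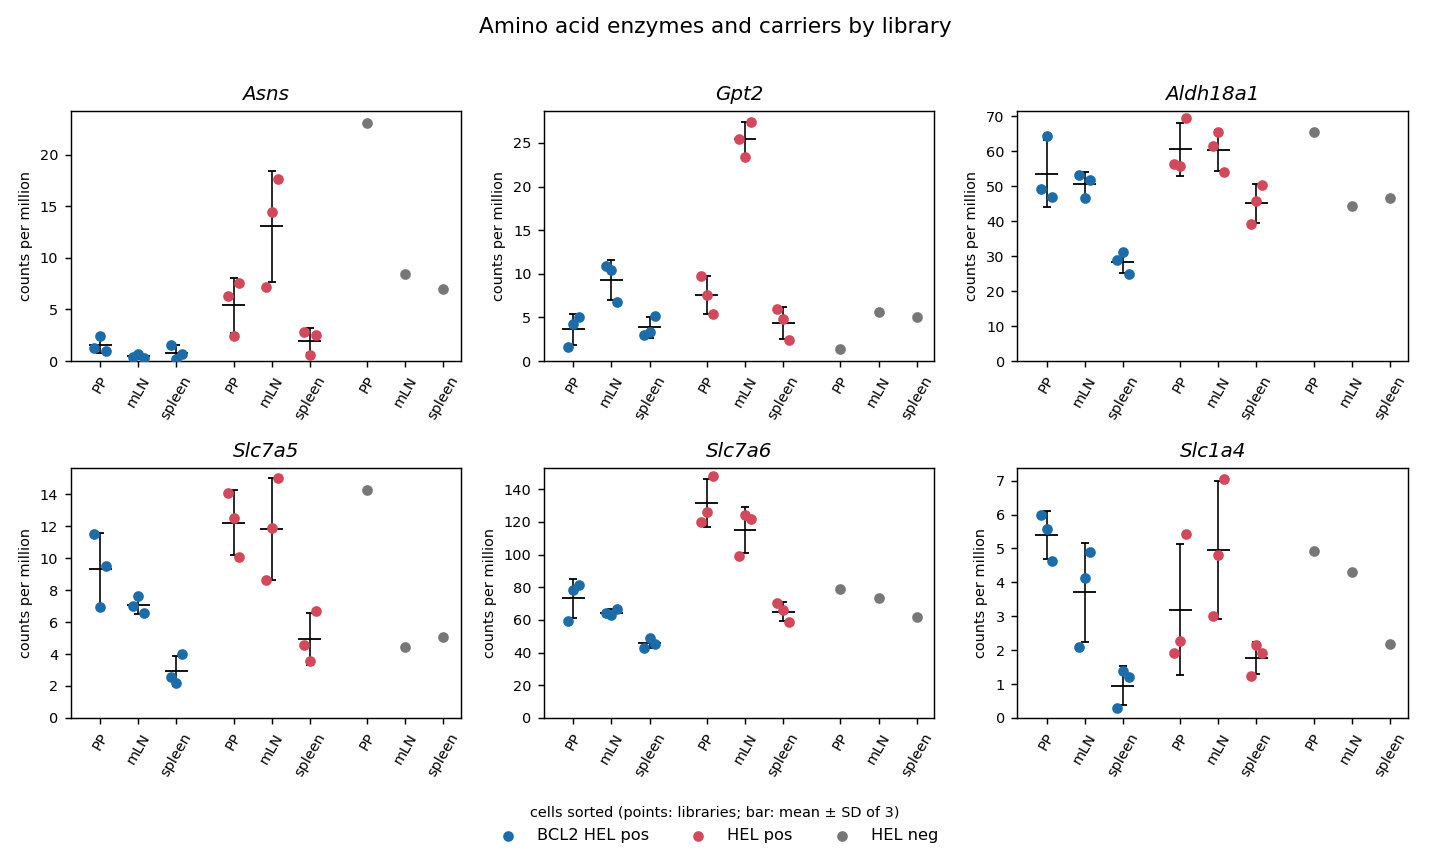
Levels of other amino acid enzymes and of amino acid carriers in every library (CPM on TMM-scaled totals), 1 point per library with mean and SD bars for groups of 3, and with groups from left to right BCL2 HEL pos, HEL pos and HEL neg, each as PP, mLN and spleen. Gpt2 was highest in the 3 mLN HEL pos libraries (23.4 to 27.4 CPM), and Asns was at or under 2.44 CPM in all 9 BCL2 HEL pos libraries.

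Among the carriers, Slc7a5 and Slc7a6 were called higher than in spleen in both tissues and both kinds of cells. Slc7a5, the light chain of the large neutral amino acid exchanger, had 11.5, 6.92 and 9.51 CPM in PP and 6.98, 7.64 and 6.58 in mLN, against 2.59, 2.19 and 3.98 in spleen, in BCL2 HEL pos libraries. HEL pos libraries gave 14.1, 12.5 and 10.1 CPM in PP and 8.63, 11.9 and 15.0 in mLN, against 4.59, 3.54 and 6.70 in spleen. No PP or mLN library overlapped with spleen, and the log2 differences lay between 1.26 ± 0.34 (adjusted p = 0.0205, mLN of BCL2 HEL pos cells) and 1.65 ± 0.34 (adjusted p = 0.00384, PP of the same cells). The HEL neg pools held 14.3 CPM of Slc7a5 in PP and 4.46 in mLN, against 5.04 in spleen, so a higher level in PP was also seen between these single pools. That PP pool held the most gut epithelium markers of all libraries (1285 CPM), and their part in its Slc7a5 level was not tested. Slc7a6, a light chain for cationic and neutral amino acids, had 59.6, 78.6 and 81.1 CPM in PP and 64.3, 62.7 and 66.5 in mLN, against 42.9, 48.9 and 45.2 in spleen, in BCL2 HEL pos cells. It stood at 120, 126 and 148 CPM in PP and 99.0, 124 and 122 in mLN, against 70.3, 65.9 and 58.6 in spleen, in HEL pos cells. Those differences were 0.66 ± 0.14 and 0.48 ± 0.14 in BCL2 HEL pos cells (adjusted p = 0.00538 and 0.0327), and 1.01 ± 0.14 and 0.84 ± 0.14 in HEL pos cells (adjusted p = 5.45e-05 and 0.000117). The mLN call of Slc7a6 in BCL2 HEL pos cells was kept in 4 of 11 alternatives, with adjusted p up to 0.123. It was lost when any library of that comparison was left out. For Slc7a5, the mLN call in BCL2 HEL pos cells was kept in 8 of 11 alternatives and the PP call in HEL pos cells in 10 of 13.

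Slc1a4, a carrier of alanine, serine and cysteine, was low throughout. It had 6.00, 5.57 and 4.63 CPM in PP and 2.09, 4.13 and 4.90 in mLN, against 0.288, 1.38 and 1.20 in spleen, in BCL2 HEL pos cells. HEL pos cells had 1.91, 2.26 and 5.42 CPM in PP and 3.00, 4.81 and 7.05 in mLN, against 1.23, 2.15 and 1.93 in spleen. The HEL neg pools held 4.93 CPM of it in PP and 4.30 in mLN, against 2.18 in spleen. It was called for PP and mLN in BCL2 HEL pos cells (2.43 ± 0.57, adjusted p = 0.0105, and 1.90 ± 0.58, adjusted p = 0.0393) and for mLN in HEL pos cells (1.50 ± 0.54, adjusted p = 0.0483). The PP call was kept in 10 of 11 alternatives. The mLN calls were kept in 6 of 11 in BCL2 HEL pos cells (adjusted p up to 0.158) and 4 of 12 in HEL pos cells (up to 0.211). The heavy chain Slc3a2 was called for mLN in HEL pos cells, at 173 to 218 CPM against 111 to 131 in spleen (0.68 ± 0.15, adjusted p = 0.00228). So were the cationic carrier Slc7a1 (0.65 ± 0.21, adjusted p = 0.0301), whose mLN and spleen libraries overlapped, and the glutamine carrier Slc38a1 (0.46 ± 0.13, adjusted p = 0.00950). A related carrier of small neutral amino acids, Slc38a2, differed in the other tissue, at 229 to 303 CPM in PP HEL pos libraries against 160 to 173 in spleen (0.73 ± 0.17, adjusted p = 0.00478). It was the 1 member called higher in PP than in mLN (0.57 ± 0.17, adjusted p = 0.0361), a call kept in 5 of 13 alternatives, with adjusted p up to 0.204. It was lost when PP 392, the PP pool or any of the 3 mLN libraries was left out. Slc1a5, the main glutamine exchanger, was called in no comparison of tissues and ranged from 208 to 446 CPM.

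Of the 9 regulators and feedback genes that passed the filter, Ddit3 was the only one called between tissues. Ddit3 encodes CHOP, a C/EBP family factor induced through ATF4 (chr10:127290774-127296288). It had 39.8, 59.6 and 53.6 CPM in PP and 40.9, 61.8 and 43.4 in mLN, against 28.0, 28.1 and 29.1 in spleen, in BCL2 HEL pos libraries. HEL pos libraries held 43.1, 39.1 and 36.7 CPM in PP and 40.6, 45.3 and 53.1 in mLN, against 21.7, 20.8 and 23.7 in spleen. The groups did not overlap, and the differences were 0.82 ± 0.18 (adjusted p = 0.00583) and 0.76 ± 0.18 (adjusted p = 0.00766) in BCL2 HEL pos cells, and 0.84 ± 0.18 (adjusted p = 0.00304) and 1.09 ± 0.18 (adjusted p = 0.000123) in HEL pos cells. Atf4 (chr15:80255184-80257541, plus strand) had 289, 323 and 160 CPM in PP and 290, 266 and 216 in mLN, against 273, 304 and 256 in spleen, in BCL2 HEL pos libraries. Its HEL pos values were 178, 225 and 191 CPM in PP and 173, 231 and 232 in mLN, against 132, 206 and 185 in spleen. All its tissue groups overlapped, with differences from spleen of -0.13 ± 0.21 and -0.12 ± 0.21 in BCL2 HEL pos cells (adjusted p = 0.806 and 0.799) and 0.18 ± 0.21 and 0.30 ± 0.21 in HEL pos cells (adjusted p = 0.616 and 0.318). The counts measure mRNA, while ATF4 is controlled largely at translation.

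The remaining regulators were called in none of the pairwise comparisons in which they were tested. Ddit4 and Sesn2, which restrain mTORC1, ranged from 10.1 to 57.5 and from 4.08 to 21.0 CPM over the 21 libraries. The C/EBP partner Cebpg ranged from 15.5 to 35.7 CPM. Trib3, a pseudokinase that restrains ATF4, ran from 3.13 to 4.81 CPM in mLN against 0.112 to 2.08 in spleen of HEL pos cells, which did not overlap but missed the threshold (1.83 ± 0.71, adjusted p = 0.0644). Atf5 (0.719 to 5.61 CPM), Cebpb (0 to 4.32 CPM) and the glutathione-degrading enzyme Chac1 (0 to 5.07 CPM) were low.

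**Figure D4:**
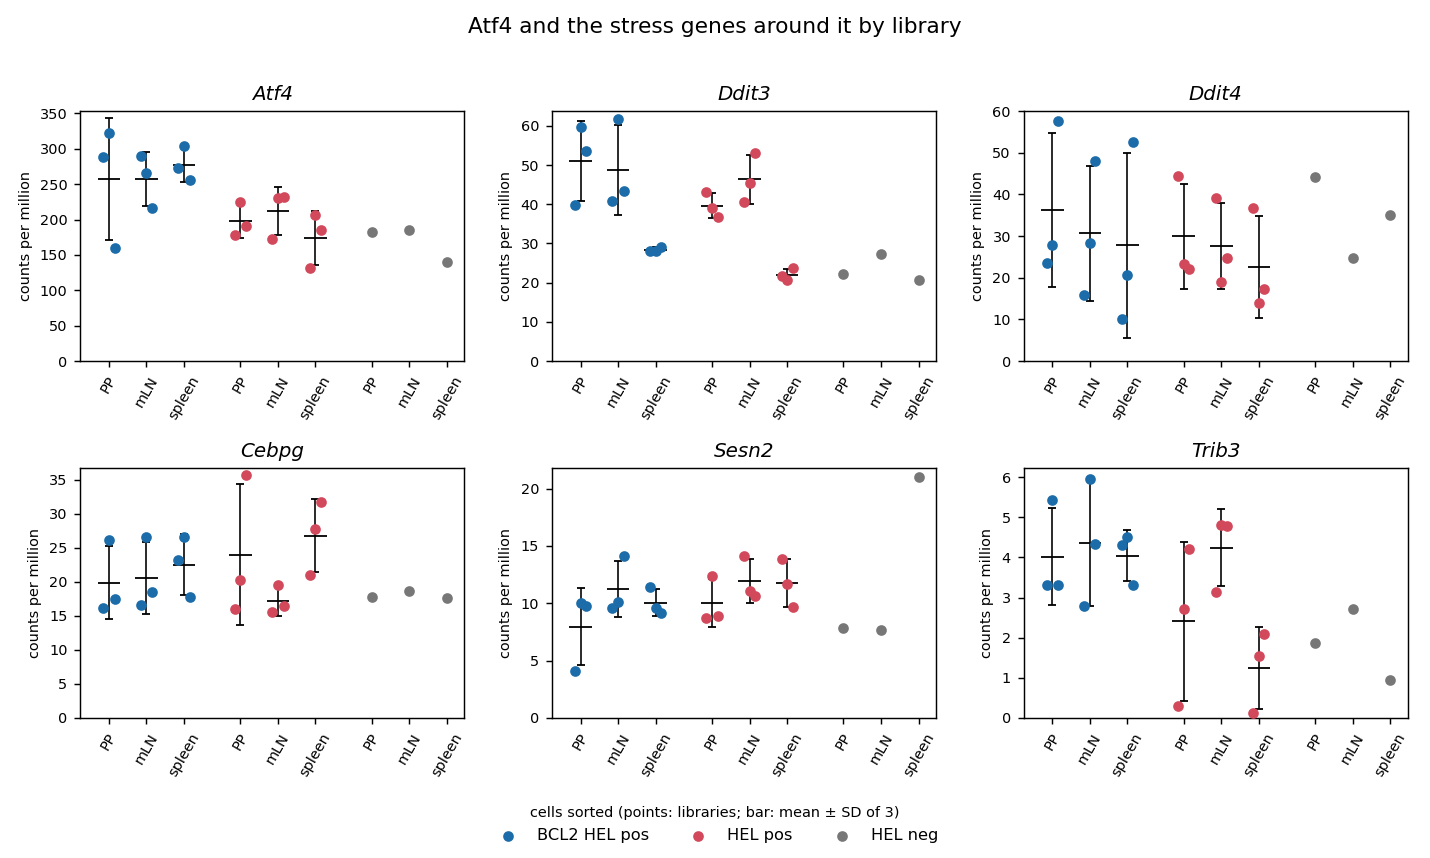
Levels of Atf4, Ddit3 and other regulators in every library (CPM on TMM-scaled totals), 1 point per library with mean and SD bars for groups of 3, and with groups from left to right BCL2 HEL pos, HEL pos and HEL neg, each as PP, mLN and spleen. Ddit3 was lowest in the spleen groups (20.8 to 29.1 CPM in BCL2 HEL pos and HEL pos cells), while the tissue groups of Atf4 overlapped.

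Between the gut-associated tissues, 1 member was higher and 4 were lower in PP than in mLN of HEL pos cells, with 8.86% of all genes called. The 4 were Gpt2, Phgdh, Mthfd2 (-1.05 ± 0.21, adjusted p = 0.00448) and Mthfd1 (-0.43 ± 0.13, adjusted p = 0.0467), and 3 members in all were called when mLN 392, mLN 399 or the PP pool was left out. The call of Mthfd1 was kept in 3 of 13 alternatives, with adjusted p up to 0.243. In BCL2 HEL pos cells Phgdh alone was called, with 1.16% of all genes called. That call was lost when any of 5 single libraries was left out, all but PP 950. DESeq2 added Gpt2 there (-1.34, adjusted p = 0.0294).

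Cell type markers moved with some of these comparisons. In PP against spleen, 7 of 12 gut epithelium markers were higher in BCL2 HEL pos cells and 9 of 12 in HEL pos cells, with sums of 41.1 to 189 CPM in PP BCL2 HEL pos and 253 to 1110 in PP HEL pos libraries. Apoa1, Apoa4, Fabp1, Krt20 and Zg16 were at 0 in all 3 spleen HEL pos libraries. When PP HEL pos 399 and the pool were both left out, the 9 members called for PP against spleen in HEL pos cells became 4, which were Shmt1, Shmt2, Slc7a6 and Slc38a2. In mLN against spleen, 1 epithelial marker was higher and 1 lower of 12 in HEL pos cells and 0 of 12 were called in BCL2 HEL pos cells. Myeloid markers were lower in mLN of HEL pos cells (6 of 9 tested, summing to 3.8 to 15.5 CPM against 74.0 to 217 in spleen), and 3 of 8 T and NK cell markers were higher. Myeloid markers were also lower in PP than in spleen of HEL pos cells (5 of 9 tested, summing to 10.1 to 24.5 CPM in PP). Of 5 plasma cell markers tested, 2 were higher and 1 lower in mLN than in spleen of BCL2 HEL pos cells (summing to 333.8 to 387.9 CPM against 348.4 to 556), and 3 were higher and 1 lower in HEL pos cells (376.2 to 445 CPM against 232.9 to 378.9). In PP 1 was higher and 1 lower in BCL2 HEL pos cells, and 2 were higher in HEL pos cells. Tnfrsf17 had at most 6 counts in any of these groups of 3. All 5 B cell markers were lower in both tissues than in spleen of HEL pos cells, with sums of 8008 to 8755 CPM in mLN against 17950 to 18800 in spleen. No cycling marker was called in any comparison of tissues. The part of these cells in the members' differences was not tested.

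Whether the tissue difference itself differed between the kinds of cells was tested as an interaction. No member was called for mLN against spleen (0.385% of all genes were), where 6 of 31 members had an unadjusted p under 0.05, nor for PP against spleen (0.00876% of all genes), where 4 did. The smallest adjusted p was 0.175 for the first, for Asns, whose difference between mLN and spleen was smaller in BCL2 HEL pos than in HEL pos cells by a log2 of -3.43 ± 1.01. DESeq2 called Asns (-3.46 ± 1.00, adjusted p = 0.0404), as did edgeR without the low-count filter (-3.42, adjusted p = 0.0192). For PP against spleen it was 0.239, for Mthfd2, which differed by 1.17 ± 0.31, and the same alternatives called that gene (1.18 ± 0.33, adjusted p = 0.0495 by DESeq2, and 1.21, adjusted p = 0.0158, without the filter). Calls made in 1 kind of cell and not in the other are therefore not shown to differ between them, except for these 2 genes under these alternatives.

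The second question was how BCL2 HEL pos cells differ from HEL pos cells of the same tissue. Bcl2 mRNA checked the label: it was higher in BCL2 HEL pos cells by 1.19 ± 0.24 in PP (adjusted p = 0.00333), 1.11 ± 0.23 in mLN (adjusted p = 0.00336) and 1.28 ± 0.24 in spleen (adjusted p = 0.00129). Shmt1, Shmt2 and Slc7a6 were lower in BCL2 HEL pos cells in all 3 tissues. The tissues share no library, but the same library numbers recur in each. Same-numbered libraries correlated across tissues at 0.09 to 0.27 in BCL2 HEL pos and 0.03 to 0.37 in HEL pos cells. The 3 tissues are therefore not shown to be independent repeats. Psat1, Mthfd1 and Mthfd2 were lower in 2 of the 3 tissues. Atf4 went the other way in spleen.

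In PP, 0 members were higher and 4 lower in BCL2 HEL pos cells, with 10.1% of all genes called. For mLN the counts were 0 higher and 10 lower, with 11.7% called, and for spleen 2 higher and 7 lower, with 9.37% called. The median log2 difference of the 31 members was -0.27 in PP, -0.43 in mLN and -0.22 in spleen. Of the members called lower, 3 in PP, 5 in mLN and 5 in spleen were serine, glycine and one-carbon enzymes.

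Shmt1 differed most among the one-carbon enzymes. Its BCL2 HEL pos libraries averaged 30.6 ± 7.03 CPM in PP, 32.6 ± 3.46 in mLN and 7.42 ± 1.19 in spleen, against 63.8 ± 7.99, 94.5 ± 16.5 and 20.0 ± 8.08 in HEL pos libraries of the same tissues (SD, n = 3 each). The log2 differences were -1.06 ± 0.23 (adjusted p = 0.00524), -1.55 ± 0.23 (adjusted p = 0.000143) and -1.40 ± 0.25 (adjusted p = 0.00118). Shmt2 averaged 136 ± 2.18, 141 ± 7.82 and 63.9 ± 8.75 CPM in BCL2 HEL pos libraries, against 207 ± 18.7, 244 ± 22.6 and 121 ± 15.0 in HEL pos libraries, with differences of -0.60 ± 0.13, -0.81 ± 0.13 and -0.91 ± 0.13 (adjusted p = 0.00459, 0.000298 and 0.000128). The carrier Slc7a6 averaged 73.1 ± 11.8, 64.5 ± 1.87 and 45.6 ± 3.05 CPM in BCL2 HEL pos libraries, against 131 ± 14.6, 115 ± 14.0 and 64.9 ± 5.89 in HEL pos libraries. It differed by -0.84 ± 0.14, -0.85 ± 0.14 and -0.49 ± 0.14 (adjusted p = 0.000827, 0.000469 and 0.0326). For these 3 genes the library values given above do not overlap between the kinds of cells in any tissue. All 3 were kept in mLN under every alternative. In spleen the call of Slc7a6 was kept in 4 of 11 alternatives (adjusted p up to 0.118) and was lost when any spleen library but HEL pos 399 was left out. In PP the calls of Shmt1 and Shmt2 were lost when both HEL pos 399 and the pool were left out (adjusted p = 0.166 and 0.154), and that of Shmt2 also with only the compared libraries.

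Psat1 was lower in BCL2 HEL pos cells of PP (-0.93 ± 0.23, adjusted p = 0.0150) and mLN (-0.90 ± 0.23, adjusted p = 0.0141). Mthfd1 was lower in mLN (-0.57 ± 0.13, adjusted p = 0.00778) and spleen (-0.47 ± 0.14, adjusted p = 0.0342), as was Mthfd2 (-1.03 ± 0.21, adjusted p = 0.00291, and -0.73 ± 0.22, adjusted p = 0.0421). The spleen calls were kept in 4 of 11 alternatives for Mthfd1 (adjusted p up to 0.131) and 6 of 11 for Mthfd2 (up to 0.175). In PP Mthfd2 was not called and its estimate was positive (0.44 ± 0.21). Psph, at 18.3 to 23.3 CPM in BCL2 HEL pos against 32.5 to 37.3 in HEL pos libraries of spleen, was lower there (-0.81 ± 0.17, adjusted p = 0.00393). Aldh18a1 was lower in spleen too (-0.65 ± 0.16, adjusted p = 0.0129). Gpt2 was lower in mLN (-1.45 ± 0.36, adjusted p = 0.0112), as were the carriers Slc1a5 (-0.48 ± 0.14, adjusted p = 0.0265) and Slc7a1 (-0.70 ± 0.21, adjusted p = 0.0365). Asns gave the largest difference of the members called, -4.73 ± 0.71 in mLN (adjusted p = 0.000210), from 11 counts in the 3 BCL2 HEL pos libraries, so the size of this estimate depends on how the fit treats low counts.

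The members called higher in BCL2 HEL pos cells were both in spleen. Atf4 averaged 278 ± 24.3 CPM in BCL2 HEL pos and 174 ± 38.2 in HEL pos libraries of spleen (SD, n = 3 each), a log2 difference of 0.69 ± 0.21 (adjusted p = 0.0406). The groups did not overlap. The call was kept in 5 of 11 alternatives, with adjusted p up to 0.178. In PP and mLN the differences were 0.38 ± 0.21 and 0.26 ± 0.21 and were not called. Slc3a2 was at 148 to 194 CPM in BCL2 HEL pos against 111 to 131 in HEL pos libraries of spleen (0.50 ± 0.15, adjusted p = 0.0440). That call was kept in 4 of 11 alternatives, with adjusted p up to 0.207.

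**Figure D5:**
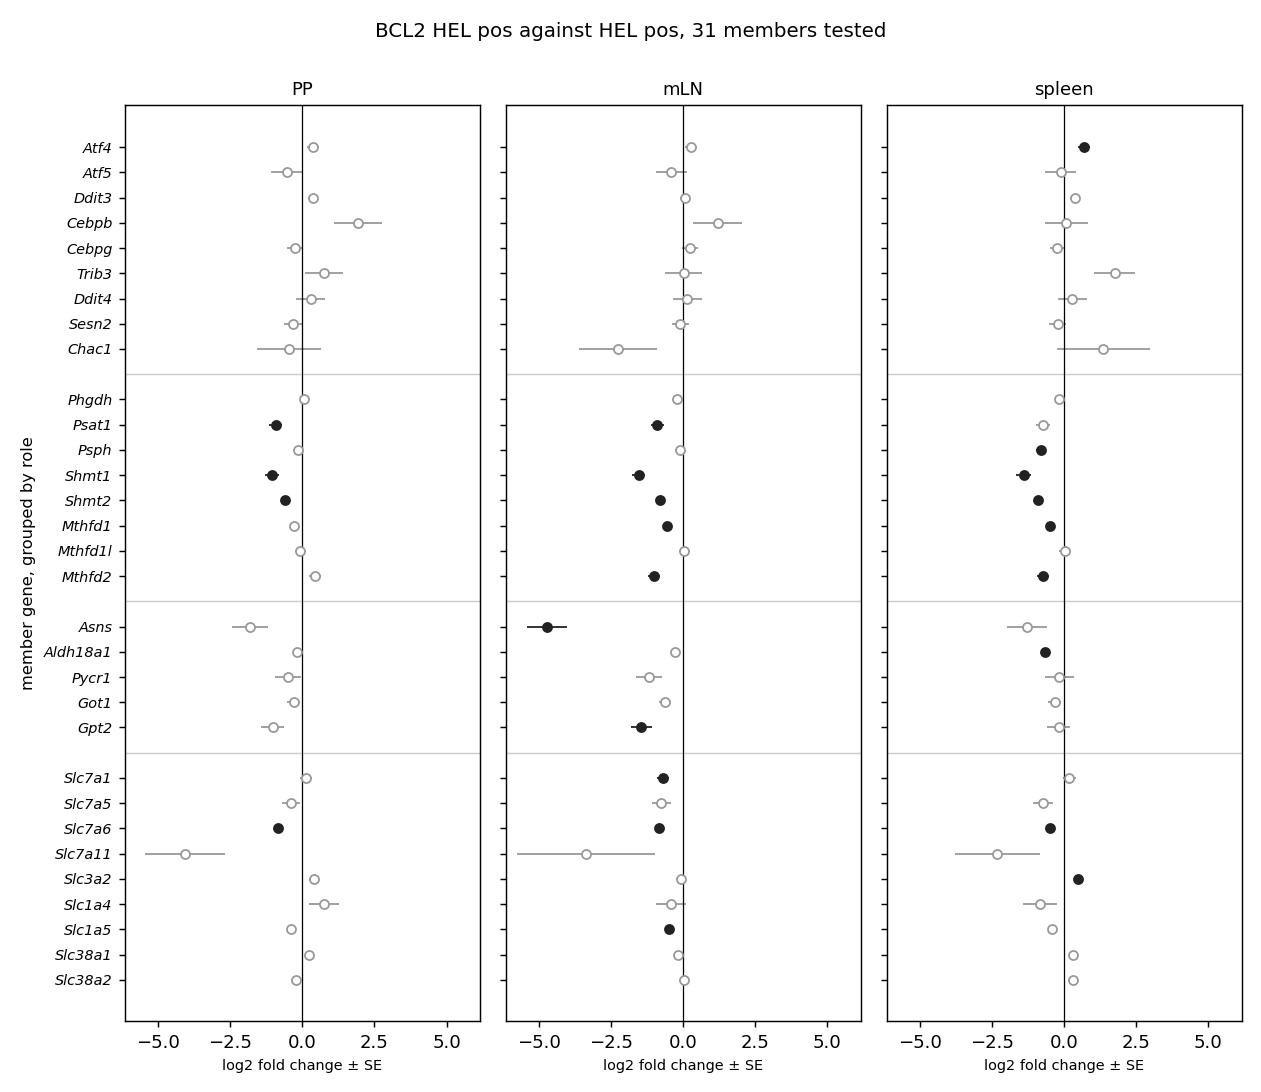
Log2 differences of the 31 members tested between BCL2 HEL pos and HEL pos cells, in panels for PP, mLN and spleen. Bars are SE, and filled points were called at an adjusted p under 0.05; Shmt1, Shmt2 and Slc7a6 are filled and left of 0 in all 3 panels, and Atf4 and Slc3a2 are filled and right of 0 in spleen.

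The library features described at the outset moved with this comparison. HEL pos libraries 392 and 399 held almost no Y-linked counts and 232 to 608 CPM of the X-linked gene Xist. The BCL2 HEL pos libraries held both Y-linked counts and Xist (142 to 278 CPM), as did the HEL pos pools (124 to 365 CPM of Xist). The sex and number of mice behind each library were not tested. In PP, 6 of 12 gut epithelium markers were lower in BCL2 HEL pos cells, and leaving out both PP HEL pos 399 and the pool left 1 member called there in place of 4. In mLN, 5 of 8 T and NK cell markers were lower, and in spleen 4 of 9 myeloid markers were. Cycling markers were called lower for 1 of 8 in mLN and 1 of 8 in spleen. In both tissues 0 of the 8 had a positive estimate, with median log2 differences of -0.78 in mLN and -1.63 in spleen. In PP 0 of 8 were called and 2 estimates were positive, with a median of -0.99. Leaving out 1 spleen library lowered the 9 calls of that tissue to 3 (BCL2 HEL pos 950), 4 (BCL2 HEL pos 926 or HEL pos 399), 5 (BCL2 HEL pos 922 or HEL pos 392) or 6 (HEL pos pool). Leaving out mLN BCL2 HEL pos 950 or mLN HEL pos 392 lowered the 10 calls of mLN to 6, and leaving out PP HEL pos 392 raised the 4 of PP to 7. The part of these features in the members' differences was not tested.

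HEL neg cells had 1 pool per tissue, so the comparison with them used tissue as a covariate and 3 pools as replicates. In BCL2 HEL pos against HEL neg cells 2 members were higher and 2 lower of 29 tested, with 14.7% of all 10987 genes called. Ddit3 (0.81 ± 0.18, adjusted p = 0.00508) and Atf4 (0.64 ± 0.18, adjusted p = 0.0249) were higher. Their HEL neg pools held 22.3 CPM of Ddit3 in PP, 27.4 in mLN and 20.7 in spleen, and 182, 185 and 140 CPM of Atf4, so all but 1 BCL2 HEL pos library of Atf4 (160 CPM, PP 950) lay above all 3 pools. Psat1 (-0.84 ± 0.19, adjusted p = 0.00662) and Asns (-3.72 ± 0.40, adjusted p = 1e-05) were lower. Psat1 pools held 64.1 CPM in PP, 59.9 in mLN and 50.3 in spleen. The 4 calls became 2 when the PP HEL neg pool was left out, which ended those of Ddit3 and Atf4. Atf4 was also lost without the mLN or the spleen pool (adjusted p up to 0.132), and Psat1 without the spleen pool (adjusted p = 0.0588).

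In HEL pos against HEL neg cells, Shmt1 alone was called of 31 members (1.39 ± 0.38, adjusted p = 0.0374), with 8.68% of all 11406 genes called. The HEL neg pools held 16.8 CPM of it in PP, 15.0 in mLN and 19.5 in spleen. HEL pos libraries of PP and mLN all lay above these, and those of spleen lay on both sides of the spleen pool. Unadjusted, 9 members had a p under 0.05, and DESeq2 called 6: Shmt1, Shmt2, Ddit3, Slc7a6, Slc1a5 and Gpt2. The call of Shmt1 was lost when mLN HEL neg, PP HEL neg, PP HEL pos 392, spleen HEL pos 392 or any of the 3 mLN HEL pos libraries was left out, and the count became 7 without the spleen HEL neg pool and 3 without spleen HEL pos 399 or the spleen HEL pos pool. Cycling markers were lower than in HEL neg cells for 8 of 8 in BCL2 HEL pos and 7 of 8 in HEL pos cells, and their part in these results was not tested.

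The tissue pattern of Shmt1 in HEL pos cells was not seen in the HEL neg pools. Some other members did rise between these pools: Slc7a5 in PP was 2.83 times spleen in HEL neg and 3.08 times in HEL pos pools. For Shmt1, the level in mLN was 4.45 times that in spleen for HEL pos and 0.768 times for HEL neg pools, and that in PP was 3.73 and 0.863 times that in spleen. This difference of differences was tested in a fit of all 21 libraries in 9 groups, chosen after the values were seen, in which each lone pool was assumed to vary like the other groups. For mLN against spleen, 3 of 32 members were called, all with a larger difference in HEL pos than in HEL neg cells, and 3.55% of all 11750 genes were called. They were Shmt1 (2.63 ± 0.49, adjusted p = 0.00502), Phgdh (0.94 ± 0.25, adjusted p = 0.0415) and Mthfd1 (0.97 ± 0.27, adjusted p = 0.0462). Leaving out spleen HEL pos 392, mLN HEL pos 392 or mLN HEL pos 399 left 1 call, that of Shmt1. The call of Phgdh was lost whichever mLN or spleen HEL pos library was left out. That of Mthfd1 was lost without any of these but the mLN pool. Both were also lost with no low-count filter, while Shmt1 stayed called in each case. For PP against spleen 0 members were called by edgeR, with 0.272% of all genes called, 4 members at an unadjusted p under 0.05, and 1 called by DESeq2.

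Other genes of the pathway gave the surroundings of these results. Of 20 cytosolic aminoacyl-tRNA synthetases, which charge tRNAs and include known ATF4 targets, 10 were higher and 1 lower in PP than in spleen of BCL2 HEL pos cells, and 4 higher in mLN. In HEL pos cells 8 were higher and 1 lower in PP, and 16 higher and 0 lower in mLN, where Iars (1.00 ± 0.12), Lars (0.97 ± 0.12) and Aars (0.96 ± 0.13) had the smallest p. In BCL2 HEL pos against HEL pos cells 0 were called in PP, 8 were lower in mLN, led by Iars (-0.69 ± 0.12), and 1 was lower in spleen. As shares these are 55.0% and 20.0% of the list for PP and mLN against spleen in BCL2 HEL pos cells, 45.0% and 80.0% in HEL pos cells, and 40.0% in mLN and 5.00% in spleen between the kinds of cells, to be read against the shares of all genes given above.

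Among 19 tested genes of the folate cycle, thymidylate and purine synthesis, 3 were higher in PP and 4 in mLN than in spleen of BCL2 HEL pos cells. In HEL pos cells 4 were higher and 1 lower in PP, and 9 were higher in mLN. The reduced folate carrier Slc19a1 was higher in mLN than in spleen in both (1.12 ± 0.20 and 1.35 ± 0.19), as were the purine synthesis enzymes Pfas (0.83 ± 0.18 and 1.20 ± 0.18) and Gart (0.75 ± 0.15 and 0.85 ± 0.15). Between the kinds of cells 3 were lower in PP, 4 in mLN and 1 in spleen with BCL2, none higher. These are 15.8%, 21.1% and 5.26% of the list, against 10.1%, 11.7% and 9.37% of all genes, so the share in spleen is below that of all genes. Against spleen the shares were 15.8% in PP and 21.1% in mLN of BCL2 HEL pos cells, and 26.3% and 47.4% in HEL pos cells. Tyms, thymidylate synthase, was lower in BCL2 HEL pos than in HEL neg cells (-1.85 ± 0.29, adjusted p = 0.000422), as were the cycling markers. Tyms was also the gene of this list called lower in BCL2 HEL pos than in HEL pos cells of spleen (-1.16 ± 0.35, adjusted p = 0.0412).

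Of 12 tested genes around eIF2 and ATF4, the phosphatase subunit Ppp1r15a, which reverses eIF2 phosphorylation, was higher in BCL2 HEL pos than in HEL pos cells in PP (1.38 ± 0.25, adjusted p = 0.00209), mLN (0.80 ± 0.25, adjusted p = 0.0372) and spleen (1.13 ± 0.25, adjusted p = 0.00530). It was also higher in BCL2 HEL pos than in HEL neg cells (1.10 ± 0.22, adjusted p = 0.00301). Between BCL2 HEL pos and HEL pos cells, 2 of those 12 were higher and 0 lower in PP. In mLN 2 were higher and 1 lower, and in spleen 1 was higher and 0 lower. These are 16.7%, 25.0% and 8.33%, against 10.1%, 11.7% and 9.37% of all genes, so the share in spleen is below that of all genes. The amino acid sensing kinase Eif2ak4 was higher in mLN than in spleen of HEL pos cells (0.61 ± 0.16, adjusted p = 0.00852). So were Eif2s1 (0.67 ± 0.15, adjusted p = 0.00272) and Eif4ebp1 (0.50 ± 0.17, adjusted p = 0.0413). These 3 are 25.0% of the 12, near the 24.5% of all genes. In PP against spleen of HEL pos cells 1 was higher and Ppp1r15a was lower (-0.82 ± 0.26, adjusted p = 0.0343), 16.7% against 15.4% of all genes. In BCL2 HEL pos cells 1 was higher in PP (8.33% against 7.34%) and 0 were called in mLN. Of 17 tested genes of methionine, glutathione and other amino acid metabolism, Bcat1, which starts the breakdown of branched-chain amino acids, was higher in mLN than in spleen in BCL2 HEL pos (2.69 ± 0.59) and HEL pos cells (3.32 ± 0.56). That list had 1 gene higher and 0 lower in mLN of BCL2 HEL pos cells, and 3 higher and 1 lower in mLN of HEL pos cells. Its shares, 5.88% and 23.5%, are at or below the 10.0% and 24.5% of all genes. Of 15 tested other carriers and mTORC1 sensors, 2 were higher and 0 lower in mLN than in spleen of BCL2 HEL pos cells. In HEL pos cells 2 were higher and 3 lower. These are 13.3% and 33.3% of that list, against 10.0% and 24.5% of all genes. The GTPase Rragd was higher in mLN in both kinds of cells (1.80 ± 0.48 and 2.02 ± 0.48). Among those lower in mLN of HEL pos cells was Slc43a1 (-1.35 ± 0.36). The carrier Slc43a1 was lower in BCL2 HEL pos than in HEL pos cells in PP (-2.25 ± 0.40), mLN (-1.49 ± 0.39) and spleen (-3.01 ± 0.39).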

How the data were processed

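The 21 libraries were single-end 50-bp RNA-seq of sorted B cells. The authors deposited whole-number counts per gene symbol. HTSeq, STAR, mm10 and DESeq2 are named in the submitters' processing notes, without versions or roles. The labels name 2 library kits, TruSeq and Nextera XT, so strand use is unknown and reads of a gene and an antisense or near-identical copy cannot be told apart. Columns were matched to libraries by name. Coordinates are from GENCODE M21 and promoter sequences from RefSeq, both on GRCm38.

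Genes were filtered with filterByExpr, scaled with TMM and tested two-sided by quasi-likelihood in edgeR 4.0.16 (R 4.3.3), with Benjamini-Hochberg adjustment over all genes and calls at an adjusted p under 0.05. The 18 BCL2 HEL pos and HEL pos libraries were fitted in 6 groups (12 residual degrees of freedom; a biological coefficient of variation of 0.207). Each comparison with HEL neg cells used 12 libraries with tissue as covariate (8 degrees of freedom). The pipeline was checked on simulated counts. Alternatives were DESeq2 1.42.0, its size factors, no filter, fewer libraries and a replicate block.

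Values in every library are given for Atf4 and the members called in the most of 11 pairwise comparisons, 14 in all. Of other lists, at most 3 called genes per list and comparison with the smallest p were eligible. The members and lists were chosen with earlier results of these data known. Count-based precision covers counting error only. Some genes of the lists are not reported here.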

Additional observations from a re-analysis of the deposited data

Results flagged for a closer look

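For 3 members the difference between mLN and spleen differed between HEL pos and HEL neg cells, by an interaction term in a fit of all 21 libraries that was chosen after the values were seen and assumed each HEL neg pool to vary like the other groups. The log2 difference of differences was 2.63 for Shmt1, 0.94 for Phgdh and 0.97 for Mthfd1, in each case larger in HEL pos cells. Of these members only Shmt1 stayed called whichever mLN or spleen HEL pos library was left out. Between pools, Phgdh in mLN was 2.04 times spleen in HEL pos and 1.01 times in HEL neg cells, and Mthfd1 was 1.60 and 0.929 times.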

How the results depend on the processing

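Over the pairwise comparisons and both interactions, 82 member calls were made; 43 were kept under every alternative, 39 were lost under at least 1 and 0 reversed, and the causes of losses were not tested. Members called moved by more than 1.5 times as follows. DESeq2 gave 1 and no low-count filter 1 in the BCL2 by mLN-spleen interaction (0 as reported), and 1 and 1 in the PP-spleen interaction (0). BCL2 HEL pos vs HEL pos in PP gave 2 with only the compared libraries and 1 without PP HEL pos 399 and pool (4). HEL pos vs HEL neg gave 6 with DESeq2, 4 with no filter, 0 with only the 6 pools, 0 without PP HEL pos 399 and pool, 2 without the 3 HEL pos pools and 0 without PP libraries (1). PP vs mLN in BCL2 HEL pos cells gave 2 with DESeq2, 2 with no filter and 0 with only the compared libraries (1), and in HEL pos cells 3 with only these, 1 without 399 and pool and 3 without the pools (5). PP vs spleen in HEL pos cells gave 4 without 399 and pool (9). HEL pos against HEL neg by mLN-spleen gave 6 with DESeq2 and 1 with no filter (3), and by PP-spleen 1 and 1 (0). The removals of 399 and pool, of the pools and of PP libraries were chosen after seeing the data.

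Leaving out each library in turn gave 0 to 0 in both BCL2 interactions, 8 to 11 for PP and 6 to 11 for mLN vs spleen in BCL2 HEL pos cells (6 without mLN 926, 7 without spleen 922 or 926), and 6 to 11 and 14 to 18 in HEL pos cells. PP vs mLN gave 0 to 1 in BCL2 HEL pos and 3 to 5 in HEL pos cells (3 without mLN 392, mLN 399 or the PP pool). BCL2 HEL pos vs HEL pos gave 3 to 7 in PP, 6 to 10 in mLN and 3 to 6 in spleen. BCL2 HEL pos vs HEL neg gave 2 to 5 (2 without the PP HEL neg pool). HEL pos vs HEL neg gave 0 to 7. HEL pos against HEL neg gave 1 to 3 by mLN-spleen (1 without spleen 392, mLN 392 or mLN 399) and 0 to 1 by PP-spleen.

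Library numbers recur across tissues, but the labels do not say that a number is 1 mouse. Same-numbered libraries correlated at 0.09 to 0.27 in BCL2 HEL pos and 0.03 to 0.37 in HEL pos cells, against -0.19 to 0.08 and -0.27 to 0.12 for different numbers. Since not every same-numbered pair exceeded 0.1, the numbers were not taken as pairs, although in BCL2 HEL pos cells every library correlated best with its own number, a hint from the data and not the design. With the number as a replicate block, members called were 12 for PP and 13 for mLN vs spleen (all higher) and 2 for PP vs mLN in BCL2 HEL pos cells, 11 (all higher), 21 (19 higher, 2 lower) and 5 in HEL pos cells, and 0 in both interactions. The members called lower in mLN vs spleen were Cebpb (-2.31, adjusted p = 0.0422) and Cebpg (-0.59, adjusted p = 0.0385). DESeq2 and no filter also called Cebpb lower, and only the compared libraries both. Depth limits Asns, Slc1a4 and the other members at a few CPM.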
